A study of Mus musculus with 4 samples.

Results

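The nuclear-encoded subunits of the 5 oxidative phosphorylation complexes were followed in mouse septal brain tissue. Members were all gene rows whose symbol began with Nduf, Uqcr, Cox4, Cox5, Cox6, Cox7, Cox8 or Atp5, together with Sdha, Sdhb, Sdhc and Sdhd. The rule took in 91 of 15409 gene rows, of which 43 were assigned to complex I, 4 to complex II, 8 to complex III, 19 to complex IV and 17 to complex V. Because it works on symbols, the rule also took in 7 complex I assembly factors (the Ndufaf genes), the supercomplex factor Cox7a2l, and Atp5s and Atp5sl, which are not structural parts of the ATP synthase. Ndufa4 and Ndufa4l2 were counted with complex IV, where the Ndufa4 protein is now placed in spite of its name.

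The study compared TCRb-/- mice, whose T cells cannot build the usual receptor for want of its beta chain, with wild-type (WT) mice, and asked how their septal transcriptomes differ after stress. All mice of both genotypes were restrained for 30 min on 3 days and killed 1.5 h after the last session, so there was no unstressed group. Each genotype had 1 library in experiment 1 and 1 in experiment 2, with tissue of 4 to 5 mice pooled before extraction. A replicate is therefore a pool of animals. RNA was purified from a detergent-treated lysate after nuclei and debris had been spun down, and libraries were prepared with a SMARTer kit for very small amounts of RNA and read on a HiSeq sequencer.

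Oxidative phosphorylation takes place in the inner mitochondrial membrane. Complexes I (NADH dehydrogenase) and II (succinate dehydrogenase) pass electrons to ubiquinone, complex III (the cytochrome bc1 complex) passes them on to cytochrome c, complex IV (cytochrome c oxidase) hands them to oxygen, and complex V (the ATP synthase) uses the resulting proton gradient to make ATP. Most subunits are encoded in the nucleus and a smaller number by mitochondrial DNA, and neurons depend heavily on the pathway to sustain ion pumping and synaptic transmission.

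Library totals ran from 19988137 to 26210790 reads, of which 97.6% to 97.8% fell on listed rows. All 5 septum markers (Trpc4, Zic1, Zic2, Chat and Dgkg) were listed, with a summed level of 302 to 336 CPM (counts scaled to a common library total). Markers of neighbouring tissue differed between the experiments. The 5 choroid plexus markers summed to 1313 and 714 CPM in the TCRb-/- and WT libraries of experiment 1 and to 4708 and 2752 CPM in those of experiment 2. The 5 striatal markers summed to 2056 and 1830 CPM in experiment 1 and to 388 and 1039 CPM in experiment 2. In bulk tissue, fewer cells of a type and less RNA per cell cannot be told apart.

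Transcripts of the members made up 2.46% and 3.06% of all reads in TCRb-/- libraries 1 and 2, and 2.50% and 3.00% in WT libraries 1 and 2. The number of a library is also the number of its experiment. The high values were those of experiment 2 in both genotypes, and the genotypes overlapped.

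The members spanned 3 orders of magnitude. Levels of different genes are compared here as CPM per kb of transcript, averaged over the 4 libraries, with the length of 1 annotated principal transcript per gene. The median over all 91 members was 296 CPM per kb, and the medians by complex were 248 for complex I, 295 for complex II, 461 for complex III, 286 for complex IV and 355 for complex V. The spread within a complex was wider than that between complexes, as the plot of levels by complex shows. Assembly factors of complex I had a median of 47.4 CPM per kb and the tissue-restricted isoforms of complex IV one of 9.38, while the 11 common complex IV subunits had one of 669.

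**Figure D1:**
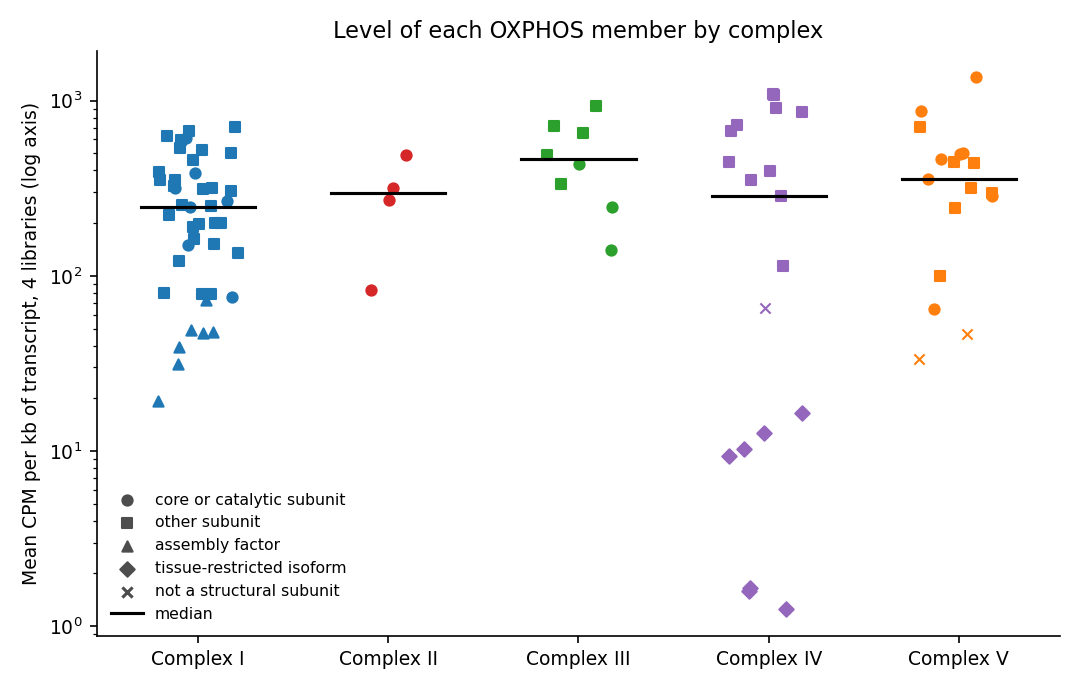
Mean level of each of the 91 members in CPM per kb of transcript (log axis), by complex. Each symbol is 1 gene averaged over 4 libraries, symbol shapes give the role, and bars are medians. The tissue-restricted complex IV isoforms lie lowest, with a median of 9.38 CPM per kb, and the assembly factors lie below the other members of complex I.

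The highest member per kb was Atp5b, the catalytic beta subunit of the ATP synthase head, with a mean of 1357 CPM per kb and between 1287 and 1399 in single libraries. In complex V it was followed by Atp5g3, which encodes the c-ring protein through which protons pass, at 871 CPM per kb, and by Atp5j, a peripheral stalk subunit, at 710. Cox4i1, a subunit that binds the catalytic core of complex IV, led that complex at 1094 CPM per kb, ahead of Ndufa4 at 1070 and Cox8a at 906. The library ranges of Cox4i1 (966 to 1232) and Ndufa4 (920 to 1238) overlapped, so their order was not resolved.

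In complex III, the small subunit Uqcr11 was highest at 928 CPM per kb, followed by Uqcrq at 715 and Uqcr10 at 653. In complex I the accessory subunits Ndufb9 (711), Ndufb8 (667) and Ndufa3 (624) led. In complex II, Sdhb, the iron-sulfur subunit, had 486 CPM per kb, Sdha, the flavoprotein that oxidises succinate, had 319, and the membrane anchors Sdhd and Sdhc had 271 and 82.5. Levels per kb depend on the transcript chosen. The assigned form of Sdhc, at 3171 nt, is not the shortest one annotated, and with the longest principal form Uqcrq would have 190.4 CPM per kb and Atp5g1 44.9 in place of 355. The rank of such members is uncertain.

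Some members cannot be counted cleanly. Of the 91 members, 19 have an annotated near-identical copy elsewhere in the genome (at least 90% identity over at least 50% of the transcript), and Atp5l, Atp5h, Atp5g1, Atp5g2 and Uqcrb have 3 or more. How the authors treated reads shared between copies is not given in the sources used here, so the levels of these genes are uncertain.

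The question of the study, the genotype difference, was taken first. Nuclear subunits of no complex differed detectably between TCRb-/- and WT septum. In the fit across all genes (limma on log2(CPM + 1), Benjamini-Hochberg adjustment, threshold 0.05), 0 of the 89 members with a mean of at least 1 CPM passed by genotype, where 0% of the 13912 genes tested passed. At an unadjusted p under 0.05 there were 0 members, against 0.309% of all genes. This fit had no block, so the difference between the experiments widened its errors. The median log2 difference, TCRb-/- minus WT, was 0.013 over the members and 0.00069 over all genes, with 54 members above 0 and 35 below. By complex, the median differences were 0.010 (I), 0.012 (II), 0.013 (III), 0.038 (IV) and 0.00015 (V).

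With the experiment as a block, limma again called 0 members, where 0.0144% of all genes passed. The lowest member p in that fit was 0.0519 unadjusted, or 0.848 adjusted in limma, for Ndufaf2, a chaperone that acts late in complex I assembly (chromosome 13, 108002715 to 108158623 in GRCm38, minus strand). Ndufaf2 had 28.2 and 31.3 CPM in TCRb-/- libraries 1 and 2, against 31.9 and 37.3 CPM in WT libraries 1 and 2. Both TCRb-/- values lay below both WT values, and the log2 difference was -0.21, the lowest of all members (SE 0.16 in the fit without the block).

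At the other end, Cox6b2 had the highest log2 difference by genotype, 0.32 (SE 0.32), and its groups overlapped. Cox6a1, a small regulatory subunit of complex IV, had 499 and 532 CPM in TCRb-/- libraries 1 and 2 against 449 and 495 CPM in WT, with a log2 difference of 0.13 (SE 0.13). Ndufa4l2, a hypoxia-inducible relative of Ndufa4, had 1.51 and 1.85 CPM in TCRb-/- against 1.49 and 1.07 CPM in WT, counted from 24 to 39 reads per library. Cox6a1 and Ndufa4l2 were the only 2 members whose TCRb-/- libraries both exceeded both WT libraries, against 9.76% of all genes, and Ndufaf2 was the only 1 with the reverse, against 8.04%. None of these 3 was past the threshold in limma. Cox6a1 also has 1 annotated near-identical copy.

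Within the experiments, the median member difference by genotype was -0.013 in experiment 1 and 0.030 in experiment 2. The sign of the genotype difference was the same in both experiments for 47 of 89 members, close to the 51.6% of all genes. Without TCRb-/- library 2 the median by genotype was -0.16, and without TCRb-/- library 1 it was 0.18. In each case, leaving out a library changed the balance of the experiments between the genotypes.

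Genotype differences of the remaining named subunits did not pass the threshold with or without the block. In complex I they ran from -0.21 for Ndufaf2 to 0.12 for Ndufa13, and in complex II from -0.01 for Sdhd to 0.02 for Sdhc. In complex III they ran from -0.07 for Uqcrc2 to 0.07 for Uqcrc1, and in complex V from -0.14 for Atp5s to 0.14 for Atp5g2. The experiment difference widens the errors of the fit without a block. For Atp5s, not a structural part of the ATP synthase, the SE was 0.21 without the block and 0.076 with it. Its level was lower in TCRb-/- in both experiments (-0.18 and -0.11, adjusted p 0.859 in limma with the block). For Atp5g2 the SE was 0.16 and 0.095 in turn (adjusted p 0.898), and for Ndufa13 it was 0.19 and 0.065 (adjusted p 0.856), with TCRb-/- higher in both experiments. An exact permutation test on 2 against 2 libraries has 0.333 as its smallest p.

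**Figure D2:**
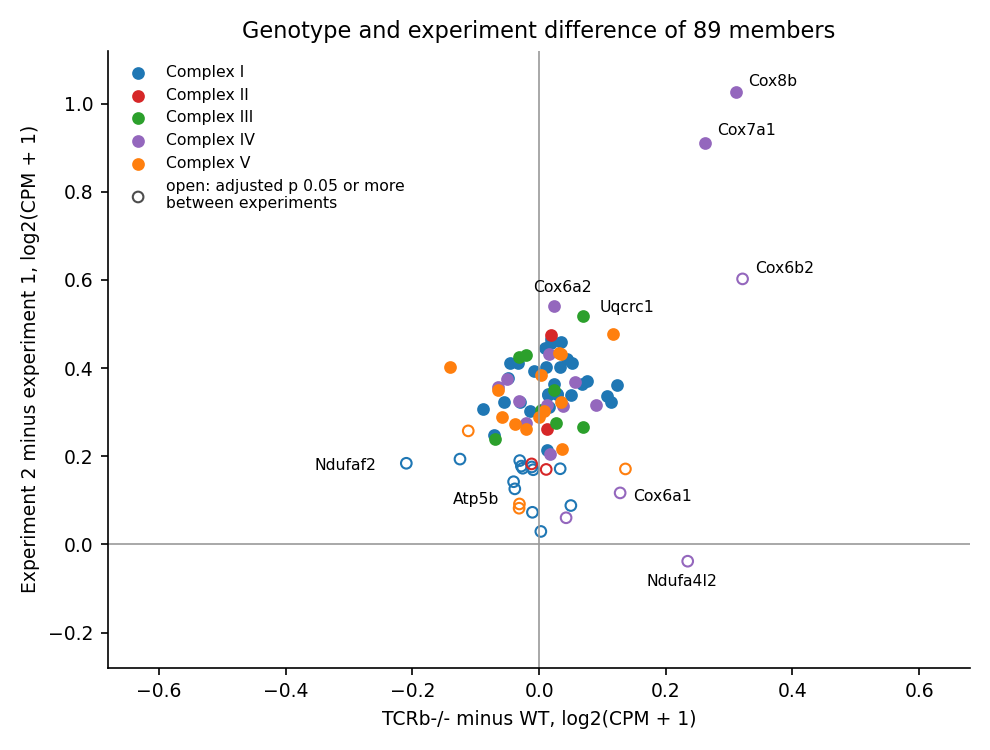
Log2 difference between genotypes (horizontal) and between experiments (vertical) for the 89 members with a mean of at least 1 CPM, on log2(CPM + 1), coloured by complex. Filled points passed the threshold between experiments in limma and open points did not. Points scatter around 0 on the genotype axis (median 0.013), while 88 of 89 lie above 0 on the experiment axis.

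The members did differ between the 2 experiments. Transcripts of every complex were more abundant in experiment 2 than in experiment 1, in both genotypes. By limma, 66 of 89 members were higher in experiment 2 and 0 were lower, against 8.95% higher and 14.7% lower of all genes tested. At an unadjusted p under 0.05 it was 76 members, against 39.2% of all genes in either direction. With the genotype as a block it was again 66 higher, against 9.29% of all genes. The count was 1 without a mean-variance trend in limma, a setting for which the share of all genes is not given here. Without TCRb-/- library 2 the median log2 difference of the members was 0.30. The median log2 difference, experiment 2 minus experiment 1, was 0.32 over the members and -0.030 over all genes, and 88 of 89 members lay above 0. Within TCRb-/- it was 0.33 and within WT 0.30. Both libraries of experiment 2 exceeded both of experiment 1 for 85 members, where 30.1% of all genes behaved in that way.

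The choroid plexus and striatal markers moved with the experiments as given above (4 of 5 choroid plexus markers higher and 5 of 5 striatal markers lower in experiment 2, by limma), and no listed marker of these lists was at 0 reads. Their part in the difference of the members was not tested. The 5 neuronal markers summed to 5123 and 5616 CPM in TCRb-/- and WT in experiment 1 and to 5499 and 5442 CPM in experiment 2, with 2 of 5 called higher and 2 lower.

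**Figure D3:**
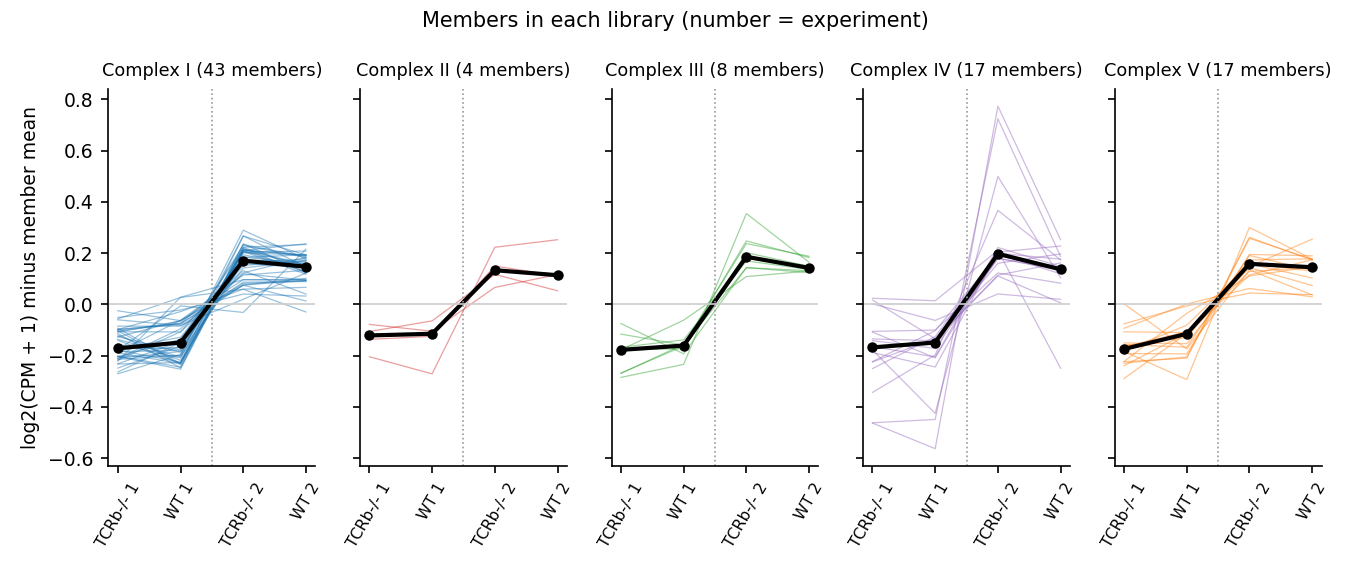
Each member's log2(CPM + 1) minus its own mean over the 4 libraries, in panels by complex, with libraries of experiment 1 left of the dotted line and of experiment 2 right of it. Thin lines are genes and black points are medians. The medians of all 5 complexes are below 0 in both libraries of experiment 1 and above 0 in both of experiment 2.

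Summed over its members, complex I had 8974 and 9010 CPM in the TCRb-/- and WT libraries of experiment 1, and 11274 and 11101 CPM in those of experiment 2. The ratio of the experiment means was 1.24 for complex I, 1.18 for complex II, 1.296 for complex III, 1.23 for complex IV and 1.18 for complex V. For every complex both sums of experiment 2 exceeded both of experiment 1, which gives that smallest exact permutation p of 0.333 (two-sided), or 0.667 adjusted over 20 comparisons.

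The proportions of the complexes to each other moved little. Complex I took between 36.1% and 37.0% of all member CPM, complex II between 7.40% and 7.71%, complex III between 9.66% and 10.4%, complex IV between 16.2% and 16.7%, and complex V between 28.7% and 30.4%. Complex V took 29.5% and 30.4% in experiment 1 and 28.7% and 28.9% in experiment 2, in TCRb-/- and WT in turn. The share of complex III was 9.66% and 9.68% in experiment 1 and 10.4% and 10.1% in experiment 2. By genotype, complex IV took 16.7% in both TCRb-/- libraries and 16.2% and 16.5% in WT. The share of complex I was 36.4% and 36.1% in experiment 1 and 36.8% and 37.0% in experiment 2, and that of complex II 7.71% and 7.66%, then 7.40% and 7.42%. Each of these differences in share, by experiment for complexes I, II, III and V and by genotype for complex IV, had an exact permutation p of 0.333, adjusted 0.667.

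In complex I, the arm that takes electrons from NADH, 30 of 43 members were higher in experiment 2 and the median difference was 0.34. The roles differed in their counts. Of the 29 accessory subunits, which surround and stabilise the catalytic core, 26 were higher, with a median of 0.34. Of the 7 nuclear core subunits, which carry the flavin and the iron-sulfur clusters, 3 were higher (Ndufs7, Ndufs8 and Ndufv2), with a median of 0.19. Of the 7 assembly factors, 1 was higher (Ndufaf6), with a median of 0.13. The difference between these roles was not tested, and their median transcript lengths were 732 nt (accessory), 1623 nt (core) and 1451 nt (assembly). With a trend on length removed, as described below, the median differences were 0.15 (accessory), 0.13 (core) and 0.0033 (assembly).

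Ndufc1, a small membrane-arm subunit on chromosome 3 (51404677 to 51408988, minus strand), had 138 and 145 CPM in the TCRb-/- and WT libraries of experiment 1 and 204 and 188 CPM in those of experiment 2. The experiments did not overlap, and the log2 difference was 0.47 (SE 0.07, adjusted p 0.00669 in limma), the largest in complex I. Ndufb8, which stood among the most abundant accessory subunits, had 391 and 391 CPM in experiment 1 and 521 and 513 CPM in experiment 2, a difference of 0.40. At the low end, the assembly factor Ndufaf4 had 67.1 and 71.1 CPM in experiment 1 and 72.7 and 68.3 CPM in experiment 2, and its experiments overlapped (difference 0.03, SE 0.07).

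All 7 core subunits of complex I lay above 0, from 0.14 to 0.41, and 3 of them passed. For all 7, both libraries of experiment 2 exceeded both of experiment 1, against 30.1% of all genes. Ndufv2, which passed, and Ndufs1, which did not, are given here after their values were seen. Ndufv2, a flavoprotein-arm subunit with an iron-sulfur cluster, had 548 and 582 CPM in TCRb-/- and WT in experiment 1 and 750 and 752 CPM in experiment 2 (difference 0.41, adjusted p 0.00791 in limma). Ndufs1, the largest core subunit, had 167 and 199 CPM in experiment 1 and 208 and 209 CPM in experiment 2 (difference 0.19, adjusted p 0.141). Its 2 libraries of experiment 1 lay further apart than its 2 of experiment 2.

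In complex II, which also serves in the citric acid cycle, Sdhc and Sdhb were higher in experiment 2, while Sdha and Sdhd did not pass. Sdhc, which anchors the enzyme in the membrane and helps bind ubiquinone (chromosome 1, 171127165 to 171150603, minus strand), had 224 and 214 CPM in the TCRb-/- and WT libraries of experiment 1 and 301 and 308 CPM in those of experiment 2. The 2 experiments were far apart against the spread within each, with a log2 difference of 0.47 (SE 0.06, adjusted p 0.00546 in limma), the smallest adjusted p of all members. Sdhb had 503 and 507 CPM in experiment 1 and 613 and 597 CPM in experiment 2 (difference 0.26, adjusted p 0.0227). Sdha had 858 and 883 CPM against 1001 and 958 CPM (difference 0.17, adjusted p 0.103), and Sdhd 315 and 309 against 348 and 361 CPM (difference 0.18, adjusted p 0.0654).

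All 8 members of complex III were higher in experiment 2, with log2 differences from 0.24 for Uqcrc2 to 0.52 for Uqcrc1. Uqcrc1, a core protein on the matrix side of the complex (chromosome 9, 108936633 to 108949623, plus strand), had 577 and 597 CPM in TCRb-/- and WT in experiment 1 and 899 and 788 CPM in experiment 2. The library of TCRb-/- mice in experiment 2 was the highest, and the adjusted p was 0.00720 in limma. Uqcrc2, its partner, had 234 and 254 CPM in experiment 1 and 286 and 290 CPM in experiment 2 (adjusted p 0.0376). The 3 small subunits Uqcr10, Uqcr11 and Uqcrq had differences of 0.35, 0.27 and 0.27.

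Of the 17 members of complex IV tested, 13 were higher in experiment 2. Among the 11 common subunits it was 10, with a median difference of 0.32. Cox4i1 had 735 and 720 CPM in TCRb-/- and WT in experiment 1 and 918 and 889 CPM in experiment 2 (difference 0.31, SE 0.07, adjusted p 0.0154 in limma). Ndufa4 had 577 and 561 CPM in experiment 1 and 755 and 717 CPM in experiment 2 (difference 0.37). Cox6a1 was the exception among the common subunits, with a difference of 0.12 (SE 0.08, adjusted p 0.294). Cox7a2l, a factor that joins complexes III and IV into supercomplexes, had 70.9 and 67.8 CPM in experiment 1 and 72.9 and 71.8 CPM in experiment 2 (difference 0.06, adjusted p 0.559).

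Several complex IV subunits exist as a common form and a form restricted to certain tissues, and 7 such restricted forms were listed. Cox6a2, Cox7a1 and Cox8b are the heart and skeletal muscle forms, Cox6b2 and Cox7b2 are known from testis, Cox4i2 from lung and vascular wall cells, and Ndufa4l2 from hypoxic and vascular cells. Each was far below its common counterpart. Shares were taken of the pair's summed CPM per kb. Cox8b made up 0.646% and 0.622% of Cox8a plus Cox8b in TCRb-/- and WT in experiment 1 and 1.58% and 1.08% in experiment 2. Cox4i2 made up between 0.0670% and 0.174% of its pair with Cox4i1. Cox7a1 made up the largest share of any restricted form, 4.04% of its pair with Cox7a2, in TCRb-/- library 2.

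The 2 members with the largest difference between experiments were restricted forms. Cox8b (chromosome 7, 140898945 to 140900446, minus strand) had 1.95 and 1.76 CPM in TCRb-/- and WT in experiment 1 and 5.95 and 3.85 CPM in experiment 2, from 48, 46, 119 and 86 reads. Exact 95% Clopper-Pearson intervals, which cover counting error only, were 1.44 to 2.59 and 1.28 to 2.34 CPM in experiment 1, and 4.93 to 7.12 and 3.08 to 4.75 CPM in experiment 2. The experiments did not overlap, and the log2 difference was 1.03 (SE 0.21, adjusted p 0.0149 in limma).

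Cox7a1 (chromosome 7, 30184144 to 30186078, plus strand) had 3.09 and 3.13 CPM in experiment 1 and 8.30 and 5.41 CPM in experiment 2, a difference of 0.91 (SE 0.20, adjusted p 0.0185 in limma). Cox6a2, which in brain is also known from parvalbumin interneurons, had 8.42 and 9.42 CPM in experiment 1 and 14.4 and 12.5 CPM in experiment 2 (difference 0.54, adjusted p 0.0276). For Cox8b, Cox7a1 and Cox6a2 alike, TCRb-/- library 2 was the highest. Without TCRb-/- library 2 the differences were 0.76 for Cox8b (adjusted p 0.0373), 0.64 for Cox7a1 (adjusted p 0.0573) and 0.44 for Cox6a2 (adjusted p 0.110). Without a mean-variance trend in limma the adjusted p values were 0.0506 for Cox8b, 0.0551 for Cox7a1 and 0.0549 for Cox6a2.

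Markers were read beside these forms. Of 5 muscle markers, 2 were listed (Mb and Acta1), with a sum of 16.1 to 18.3 CPM and 0 called between experiments. Most of that sum was Acta1, with a log2 difference of -0.04 (adjusted p 0.825 in limma). Mb had 2.24 and 1.83 CPM in TCRb-/- and WT in experiment 1 and 3.30 and 2.46 CPM in experiment 2. Its log2 difference was 0.35 (adjusted p 0.218 in limma). Pvalb, the marker of parvalbumin interneurons, had 23.2 and 28.0 CPM in TCRb-/- and WT in experiment 1 and 39.8 and 56.6 CPM in experiment 2 (log2 difference 0.87, adjusted p 0.0117 in limma), and the list of 5 parvalbumin interneuron markers had 1 gene higher and 1 lower. The lower gene was Tac1, also a striatal transcript. By log2 difference 3 of the 5 lay above 0, and Syt2 lay below 0 beside Tac1 (-0.60, adjusted p 0.0812 in limma). All 5 summed to 341 and 333 CPM in TCRb-/- and WT in experiment 1 and to 241 and 333 CPM in experiment 2. Without Tac1, a choice made after its values were seen, the other 4 markers summed to 131 and 135 CPM in experiment 1 and to 156 and 178 CPM in experiment 2. The part of these cells in the difference was not tested.

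Cox6b2 had 3.94 and 3.17 CPM in TCRb-/- and WT in experiment 1 and 6.90 and 5.01 CPM in experiment 2, and missed the threshold (difference 0.60, SE 0.19, adjusted p 0.0558 in limma without a block, 0.0320 with the genotype as a block). The remaining restricted forms did not follow. Ndufa4l2 was the only member tested with a difference below 0, -0.04 (SE 0.21). Cox4i2 and Cox7b2 had a mean below 1 CPM and were not tested. Cox4i2 had 1.14 and 1.22 CPM in experiment 1 and 0.700 and 0.581 CPM in experiment 2, from 13 to 32 reads. Both libraries of experiment 2 lay below both of experiment 1, as they did for the sum of 5 mural cell markers (32.8 and 31.8 CPM, then 21.8 and 22.5 CPM). The share of all genes with that order is not given here. Of the 4 mural cell markers tested, 1 was called lower in limma, against 14.7% of all genes. The part of mural cells in the level of Cox4i2 was not tested. Cox7b2 had 13 to 28 reads per library and its experiments overlapped. Cox4i2 and Cox7b2, with Ndufa4l2 at a mean of 1.48 CPM, were the members nearest the minimum of 1 CPM.

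**Figure D4:**
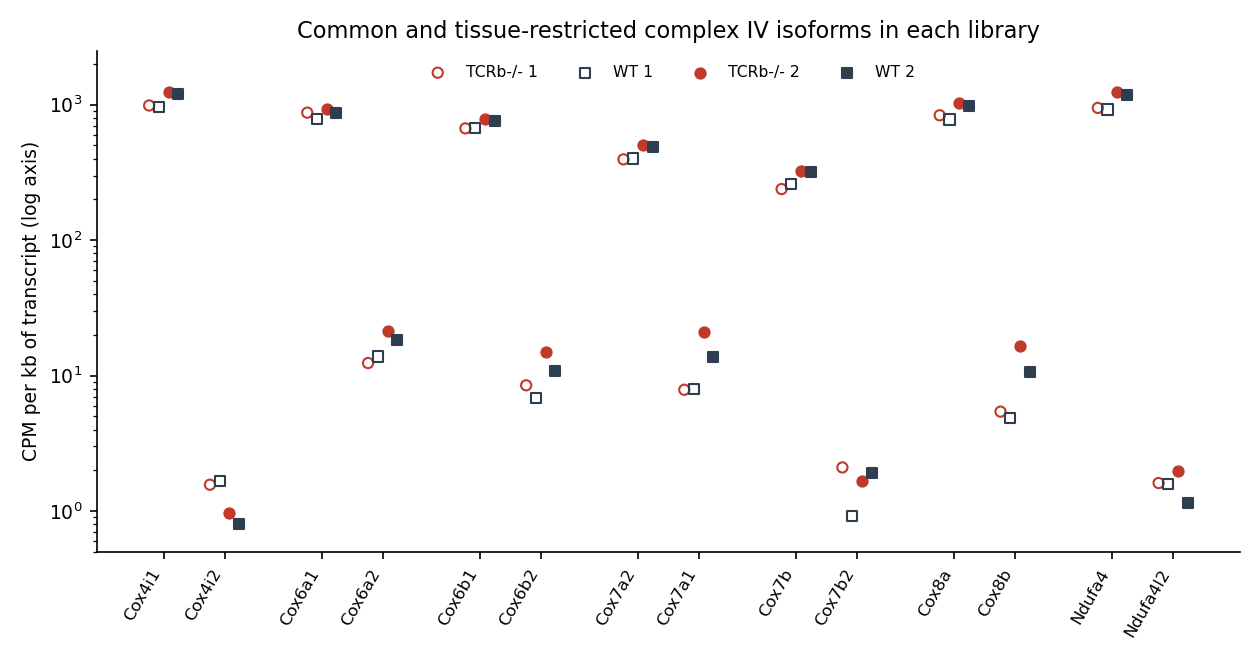
CPM per kb of transcript (log axis) in each library for 7 pairs of complex IV genes, the common form left and the tissue-restricted form right in each pair. Red circles are TCRb-/- and dark squares WT, open for experiment 1 and filled for experiment 2. Cox8b, Cox7a1 and Cox6a2 are higher in both libraries of experiment 2, while Cox4i2 is lower in both.

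In complex V, 13 of 17 members were higher in experiment 2, with a median difference of 0.29. All 4 peripheral stalk subunits, which hold the head still against the turning rotor, were higher, with a median of 0.37. In the head and central stalk it was 3 of 5, with a median of 0.26. Atp5b, the most abundant member, barely differed, with 2466 and 2588 CPM in TCRb-/- and WT in experiment 1 and 2680 and 2668 CPM in experiment 2 (difference 0.08, SE 0.08, adjusted p 0.472 in limma). Both values of experiment 2 were nonetheless above both of experiment 1.

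The c-ring of the ATP synthase is built from 1 protein encoded by the 3 genes Atp5g1, Atp5g2 and Atp5g3, which differ in their cleaved targeting peptides. Atp5g1 had 184 and 170 CPM in experiment 1 and 257 and 236 CPM in experiment 2, a difference of 0.48 (SE 0.07, adjusted p 0.00703 in limma), the largest of complex V. Atp5g3 had 552 and 575 CPM against 677 and 684 CPM (difference 0.27, adjusted p 0.0217), and Atp5g2 had 28.3 and 25.0 against 31.1 and 29.0 CPM (difference 0.17, adjusted p 0.253). The differences between the 3 genes were not tested, and near-identical copies make Atp5g1 and Atp5g2 uncertain.

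Transcript length moved with the difference between experiments. The tested members had a median transcript length of 838 nt against 2879 nt over all genes, and across the 13856 genes with a length the log2 difference fell with length (Spearman rho -0.457, across genes, which are not replicates and share the 4 libraries). Across the 89 members rho was -0.357. Among transcripts under 1000 nt, 48 of 54 members were higher in experiment 2 (median 0.34), against 31.6% of the 923 genes of that length (median 0.22). Among longer transcripts it was 18 of 35 members (median 0.24), against 7.34% of 12933 genes (median -0.048).

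**Figure D5:**
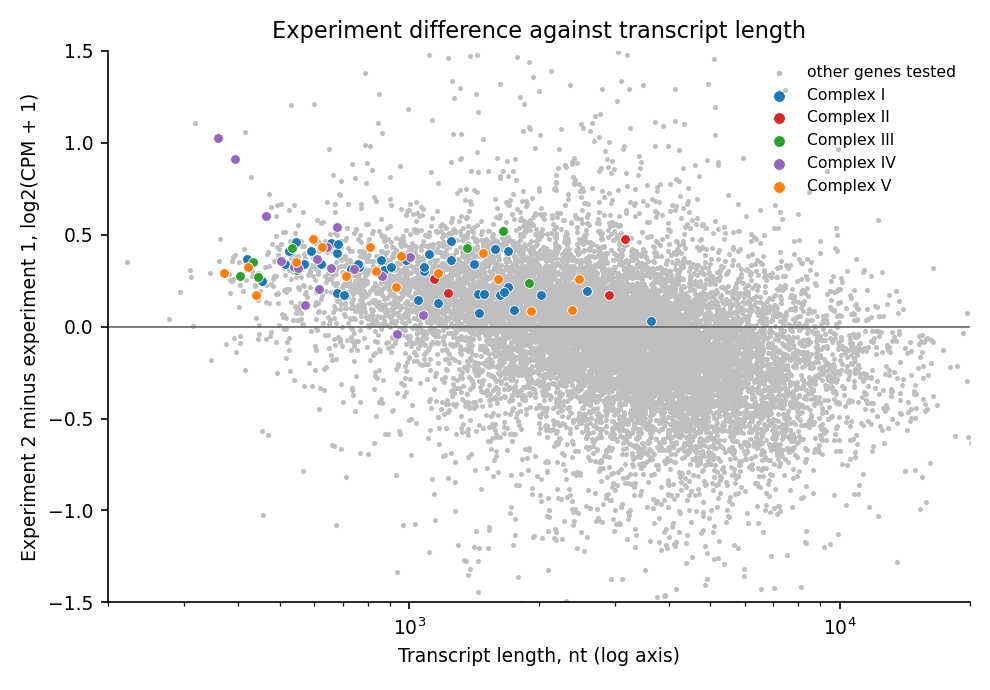
Log2 difference between experiments against transcript length in nt (log axis) for all genes tested (grey) and for the members, coloured by complex. Over all genes the difference falls with length (rho -0.457). The members lie at the short end, with a median of 838 nt, and 88 of 89 lie above 0.

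After a smooth trend on length had been removed from the differences of all genes, 8 of 89 members were higher in experiment 2, against 5.96% of all genes, and the median member difference was 0.12. The 8 were Ndufa12, Ndufb6, Ndufc1, Ndufv2 and Ndufv3 of complex I, Sdhc of complex II, and Uqcrc1 and Uqcrfs1 of complex III. Uqcrc1 had a remaining difference of 0.42 (adjusted p 0.0189 in limma) and Sdhc one of 0.55 (adjusted p 0.00658), which rests on its assigned length of 3171 nt. None of the 8 belonged to complex IV or V. Cox8b (0.74, adjusted p 0.0526) and Cox7a1 (0.63, adjusted p 0.0734) no longer passed. By complex the medians were 0.13 (I), 0.16 (II), 0.13 (III), 0.097 (IV) and 0.10 (V). The length trend was removed as a processing alternative, and its origin was not tested.

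Genes that work with the members moved in part. Of 7 listed names for nuclear subunits or inhibitors outside the prefixes, 3 were found, Cyc1, Usmg5 and Atpif1, and all 3 were higher in experiment 2, against 8.95% of all genes. With the length trend removed 0 of the 3 passed, and their median difference was 0.12 in place of 0.36. Cyc1, the cytochrome c1 of complex III, had 507 and 518 CPM in TCRb-/- and WT in experiment 1 and 639 and 651 CPM in experiment 2 (difference 0.33, adjusted p 0.0116 in limma). Of 8 mobile carriers and enzymes that feed ubiquinone, 4 were higher, against 8.95% of all genes. With the length trend removed 3 of this list passed, where 5.96% of all genes were higher. Among the 4 was Cycs, the cytochrome c carrier, with 110 and 113 against 139 and 143 CPM (difference 0.34, adjusted p 0.0116 in limma).

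Of 38 listed assembly factors outside the prefixes, 8 were higher and 1 was lower, Coa5, against 8.95% and 14.7% of all genes. With the length trend removed 1 of them passed, where 5.96% of all genes were higher. Of 14 regulators of mitochondrial biogenesis, 0 were higher and 1 was lower, where 14.7% of all genes were lower. The median difference of this list was -0.14, and 0.0033 with the length trend removed. The lower gene was Gabpa, a subunit of an ETS-type activator of many subunit genes, with 19.0 and 18.8 CPM in experiment 1 and 10.7 and 12.9 CPM in experiment 2 (difference -0.64, adjusted p 0.0137 in limma). The others of this list that are named here did not pass: Ppargc1a, a coactivator of the pathway, at -0.17, Nrf1 at -0.17, Esrra at 0.12 and Tfam, the mitochondrial DNA packaging factor, at -0.03. By genotype, 0 genes of these lists passed in limma. The 13 subunits encoded by mitochondrial DNA were not analysed here.

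The promoters of the members were searched for 4 short motifs of regulators known for mitochondrial genes. The search covered the 250 bases before the transcription start, on both strands. RefSeq promoter sequences (GRCm38.p6) matched 76 members and 10877 genes tested. The NRF1 core CGCATGCG, which reads the same on both strands, was found in 8 members (10.5%) and in 3.40% of all promoters. The ETS motif CCGGAAGT, of the kind Gabpa binds, was found in 3 members (3.95%) and in 6.19% of all. The YY1 motif AAGATGGCG was found in 2 members (2.63%, against 1.27%) and the ESRRA motif TCAAGGTCA in 1 (1.32%, against 0.322%). Atp5j held both an NRF1 and a YY1 match, which did not overlap. A match is a description of the sequence only.

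The NRF1 core was found in Ndufa8, Ndufa11 and Ndufaf4 of complex I, in Cox6a1 of complex IV, and in Atp5g2, Atp5j, Atp5k and Atp5l of complex V. Windows around 5 of these matches are shown because their genes range from large to small differences between experiments. Each is printed 5′ to 3′ on the strand of its gene, with the motif in capitals.

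Ndufa11 (chr17:56717683-56717730, plus strand): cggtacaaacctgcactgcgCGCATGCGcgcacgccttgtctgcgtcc

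Atp5j (chr16:84835096-84835143, minus strand): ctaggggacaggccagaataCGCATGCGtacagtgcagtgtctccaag

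Atp5k (chr5:108434421-108434468, minus strand): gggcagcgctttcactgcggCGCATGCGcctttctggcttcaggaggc

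Cox6a1 (chr5:115349092-115349139, minus strand): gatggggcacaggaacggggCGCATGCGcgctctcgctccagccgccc

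Ndufaf4 (chr4:24897951-24897998, plus strand): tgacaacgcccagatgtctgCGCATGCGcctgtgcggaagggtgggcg

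The motif began 59 bases before the start of Ndufa11, 147 before that of Atp5j, 49 before that of Atp5k, 161 before that of Cox6a1 and 112 before that of Ndufaf4. Ndufa11, a membrane-arm subunit of complex I, had 273 and 274 CPM in TCRb-/- and WT in experiment 1 and 387 and 367 CPM in experiment 2, a difference of 0.46 (adjusted p 0.00573 in limma). Atp5j, of the peripheral stalk, had 487 and 491 CPM against 679 and 642 CPM (difference 0.43, adjusted p 0.00678). The experiments did not overlap for either gene.

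Atp5k, which helps ATP synthases pair in the membrane, had a difference of 0.29 and passed, as did Ndufa8 at 0.36 and Atp5l at 0.35, the last with many near-identical copies. Atp5g2, Cox6a1 and Ndufaf4 had differences of 0.17, 0.12 and 0.03 and did not pass. A link between the motif and the difference between experiments was not tested.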

How the data were processed

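Per the submitters' processing notes, HISAT2 2.1.0, SAMtools 1.3, HTSeq 0.9.1, R 4.0.5, limma 3.46.0 and the mm10 genome were used, with no roles given. The authors deposited 1 file per library with 1 log2 value per gene. The deposited values were the log2 of CPM with offsets of 0.5 on reads and 1 on totals, since solving for the total gave whole reads for 100% of values (tolerance 0.01). The 15426 listed rows included 17 spike-in rows, which were left out.

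CPM were recomputed and tested as log2(CPM + 1), which understates changes of low genes. The 13912 genes averaging 1 CPM or more were fitted with limma 3.58.1 in R 4.3.3 (empirical Bayes with a mean-variance trend, two-sided, Benjamini-Hochberg over all genes, threshold 0.05), with no block. The fit was tested on simulated data. Other steps used Python 3.11.15 and BLAST 2.17.0. A count of 0 allows up to 3 reads, or 0.114 to 0.150 CPM. The labels give the experiment as the replicate number, so the numbers pair the samples, and same-numbered deviations correlated at 0.719 across genes. The reads of the replicates differed beyond counting error, so no library was counted as a copy of another.

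Members and lists were chosen with earlier results of these data known. Named genes were the 3 highest per kb in each complex, the highest and lowest difference in each complex and comparison, members called by genotype, 20 fixed members and 7 fixed pathway genes. Other genes with values were chosen after their values were seen, as were the transcript rule (the shortest best-supported principal transcript of GENCODE, GRCm38), the split at 1000 nt, the roles, the copy limits and the motifs.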

Additional observations from a re-analysis of the deposited data

Results flagged for a closer look

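In 6 of the 89 members tested the TCRb-/- minus WT log2 difference had opposite signs in the 2 experiments, each beyond counting error. It was -0.076 in experiment 1 and 0.11 in experiment 2 for Ndufc1, -0.041 and 0.064 for Sdha, and -0.051 and 0.19 for Uqcrc1. In the same order it was -0.11 and 0.050 for Uqcrfs1, -0.11 and 0.065 for Uqcrb, which has near-identical copies, and -0.098 and 0.056 for Atp5f1. There is 1 library per genotype in each experiment, and the difference between the experiments was not tested. The share of all genes that met the same rule is not given here. The sign was the same in both experiments for 47 of 89 members and for 51.6% of all genes, and replicates differed beyond counting error.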

How the results depend on the processing

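The count of 0 members by genotype was the same under every alternative run, including the replicate block. For the counts by experiment, shares of all genes are given above for the main fit, the block and the length trend only. The count of 66 by experiment was also 66 with the replicate block (64 of them shared), and it was 1 without a mean-variance trend, 8 with the length trend removed, and 10 with the replicate block and the length trend removed together, the last added after the data had been seen. With 1 library left out it ran from 40 (without TCRb-/- library 2) to 56. Beside Cox6b1 (adjusted p 0.0560 in limma) and Cox6b2, the block moved no call of a named member. The median member difference by experiment of 0.32 was 0.36 under median-of-ratios scaling and 0.12 with the length trend removed. Under these 2 settings it was 0.37 and 0.13 for complex I, 0.25 and 0.16 for complex II (0.19 under quantile normalization), and 0.36 and 0.13 for complex III. With the length trend removed it was 0.097 for complex IV and 0.10 for complex V. With 1 library left out the medians by experiment ran from 0.30 to 0.34 for all members and from 0.22 to 0.24 for complex II. With the length trend removed, differences by experiment turned from above to below 0 for 11 members. Of these, 3 had been called, Cox6b1 (-0.029), Ndufb2 (-0.018) and Uqcrq (-0.0015), and the block leaves these differences unchanged. The furthest below 0 were Cox6a1 (-0.13), Cox7a2l (-0.11) and Atp5g2 (-0.097), which had not been called. The median by genotype, near 0, was -0.0085 with the length trend removed. Apart from these constructions, the cause was not tested. A left-out library leaves 1 group with 1 sample, which is then assumed to vary like the others.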
